A study of Mus musculus with 4 samples.

Results

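The genes described are 10 regulators of apoptosis of the Bcl2 family, read in bulk RNA sequencing of mouse embryonic tissue. They were chosen by gene symbol, and all 10 were found among the 49997 genes of each count file. The set holds 3 pro-survival genes (Bcl2, Bcl2l1 and Mcl1), 2 effectors (Bax and Bak1) and 5 BH3-only genes (Bbc3, Pmaip1, Bid, Bcl2l11 and Bad). RNA was prepared from explants of the aorta-gonad-mesonephros region, the part of the embryo in which the earliest blood stem cells of adult type arise, of C57BL/6J mice. All explants were kept for 48 hours at the gas-liquid interface on a membrane filter, in MyeloCult medium with hydrocortisone. The untreated group (2 libraries) had no further agent, and the CCCP group (2 libraries) received 5 µM CCCP over the 48 hours. CCCP is a protonophore, a small molecule that carries protons across the inner mitochondrial membrane and so removes the membrane potential. The series design names E10.5 (embryonic day) and the cell type label c-kit+ stem cells, while the growth protocol names E10.5 and E11.5 and the extraction protocol whole explants, and no label says how many embryos went into a library or that replicates were separate cultures. The p-values therefore measure the spread between these 4 libraries, which may be technical.

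Bcl2 family proteins decide whether the outer mitochondrial membrane stays intact. Bax and Bak1 proteins can assemble into pores in that membrane and release cytochrome c, which activates caspases. Bcl2, Bcl-xL (the product of Bcl2l1) and Mcl1 hold them in check, and BH3-only proteins, made or modified in response to stress, bind the pro-survival proteins or activate Bax and Bak1 directly. Mcl1 is known as a survival factor that blood stem cells need, and Bcl2l1 as one that maturing red cells need. Much of this control acts on the proteins, which RNA counts do not show.

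Library totals lay between 37360968 and 48827826 counted reads, and members had between 265 and 8769 reads per library. The gap between the replicates of a group was under 2 SD of its counting error for 8 of 20 gaps, among them both gaps of Bcl2l1 and of Bcl2l11 and the untreated gap of Bcl2. Levels are given as CPM, reads per 1000000 counted reads, scaled by TMM, which equalises libraries on the bulk of their genes. Kit, the receptor that defines the labelled cells, had 51.3 and 63.2 CPM in untreated and 47.6 and 51.7 CPM in CCCP libraries, and Ptprc, the pan-leukocyte antigen CD45, had 6.85 and 6.82 against 3.65 and 3.39 CPM. The 14 blood stem and progenitor markers summed to between 188.6 and 247.6 CPM, lower in both CCCP libraries, and Gfi1 stayed under 1 CPM in every library. The 8 mesenchymal markers summed to between 3083 and 5406 CPM, with overlapping groups, so the libraries held RNA of stromal cells too. Of the 12 hepatic markers, all 12 were lower in both CCCP libraries, with sums of 1517 and 893 CPM against 6.82 and 73.0 CPM, while the 10 erythroid markers (2253 and 2456 against 2572 and 3606 CPM) and the 8 macrophage markers (225.5 and 158.5 against 231.9 and 232.4 CPM) were higher in sum. The sums overlapped between groups for the endothelial (491.9 to 652.3 CPM), skeletal muscle (257.8 to 388.1 CPM) and kidney and gonad lists (132.2 to 213.4 CPM). They were higher in both CCCP libraries for the neural list (838.0 and 765.1 against 987.7 and 850.2 CPM) and for the lymphoid list (7.69 and 10.96 against 12.2 and 14.2 CPM). The part of these cell types in the results below was not tested. In bulk RNA, fewer cells of a type and less RNA per cell cannot be told apart.

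Promoter sequence is shown for the member that was lowest in CCCP relative to untreated explants and for both effectors, which were higher. The sequences are from RefSeq (GRCm38.p6, the assembly of mm10), read 5′ to 3′ on the strand of the gene, and end at or just before its start site. They are Bcl2 (chr1:106714291-106714540, minus strand), Bax (chr7:45466904-45467148, minus strand) and Bak1 (chr17:27028628-27028877, minus strand). Capitals mark the GC box GGGCGG on either strand and, in Bax, a match to the decamer element of p53.
Bcl2: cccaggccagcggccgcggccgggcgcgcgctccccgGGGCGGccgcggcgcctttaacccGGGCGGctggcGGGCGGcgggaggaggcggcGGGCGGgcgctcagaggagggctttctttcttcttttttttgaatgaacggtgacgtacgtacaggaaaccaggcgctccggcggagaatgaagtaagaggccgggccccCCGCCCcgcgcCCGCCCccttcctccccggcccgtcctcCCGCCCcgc
Bax: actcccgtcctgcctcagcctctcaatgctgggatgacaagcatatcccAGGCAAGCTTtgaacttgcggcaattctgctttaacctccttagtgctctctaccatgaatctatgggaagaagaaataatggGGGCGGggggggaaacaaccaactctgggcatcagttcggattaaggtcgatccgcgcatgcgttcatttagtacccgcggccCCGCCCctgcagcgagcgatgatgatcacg
Bak1: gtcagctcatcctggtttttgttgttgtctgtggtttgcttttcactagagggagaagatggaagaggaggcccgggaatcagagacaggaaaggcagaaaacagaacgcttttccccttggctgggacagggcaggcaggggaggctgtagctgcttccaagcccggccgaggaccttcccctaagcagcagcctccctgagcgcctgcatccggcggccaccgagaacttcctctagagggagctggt
The Bcl2 stretch held 7 GC boxes at a GC content of 74.8%, the Bax stretch 2 at 54.3% and the Bak1 stretch none at 58.4%. RefSeq windows of 300 bases around the start site were at hand for 9 members, all but Pmaip1, with 15 windows in all. A GC box was present in 10 of the 15, against 35.9% of all 32544 windows, and the p53 decamer in 1 of 15 (Bax), against 8.36%. GTAAACA, a core bound by FOXO factors, occurred in 2 of 15 windows, against 3.66%. It is in capitals in these stretches from the second Bbc3 window (chr7:16310083-16310112, plus strand) and the first Bcl2l11 window (chr2:128125800-128125829, plus strand). In Bbc3 the match is on the opposite strand and so reads TGTTTAC. All 30 bases of the Bcl2l11 stretch lie in annotated exon of Acoxl.
Bbc3: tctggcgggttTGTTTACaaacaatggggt
Bcl2l11: aagacactaggGTAAACAcgccggggtggg
Neither TGATGNAA, the composite site of C/EBP and ATF factors, nor TGACGTCA, the cAMP response element, nor TTTCCCGC, an E2F site, was found on either strand in the 15 windows. These letters are present in 3.91%, 1.80% and 1.08% of all windows. A match is a description of the sequence and not a binding site.

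Compared per kilobase of exon over the 4 libraries, Bax was the most abundant member, at a mean of 79.9 CPM per kilobase. Mcl1 (34.1), Bak1 (23.8), Bad (13.2), Bcl2l1 (8.85) and Bbc3 (7.26 CPM per kilobase) followed, then Bcl2l11 (4.86), Bid (4.30), Bcl2 (4.17) and Pmaip1 (2.52 CPM per kilobase). Neighbours in this order were apart in every library except Bcl2l1 and Bbc3, and Bid and Bcl2, whose ranges overlapped. Mcl1 made up between 70.5% and 74.1% of the pro-survival pool, the summed counts per kilobase of the 3 genes. Bax made up between 57.4% and 59.5% of the pool of the 7 pro-death genes, and its share thus hardly differed between libraries. The order is uncertain for Bid, whose exons are annotated both on chromosome 6 (120893119 to 120917062) and on an alternate contig. Reads that map to both places were not counted, and its length was taken from chromosome 6 alone (2231 bases). For Bad, reads over 517 exon bases shared with Gpr137 were not counted either, while its length was taken as all 1521 bases. Its level per kilobase and its part of the pro-death pool may therefore be too low.

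No member passed an adjusted p-value of 0.05 by edgeR's quasi-likelihood test over the 19837 genes tested, in which 0.0% of all genes were called, and DESeq2 called 0 of the 10, where it called 2.99% of all genes. At an unadjusted p under 0.05 there was 1 member, Bcl2, where 14.6% of all genes tested were under that value in edgeR in either direction and 9.16% of all with a lower level in CCCP. Of the 10 members, 7 had a log2 fold change above 0, and the median was 0.19, against -0.01 for all genes tested. Without overlap of the groups, CCCP was higher for 5 members (Bcl2l1, Bax, Bak1, Bbc3 and Bad), where 24.0% of all genes did so, and lower for 2 (Bcl2 and Bcl2l11), where 24.8% did so.

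**Figure D1:**
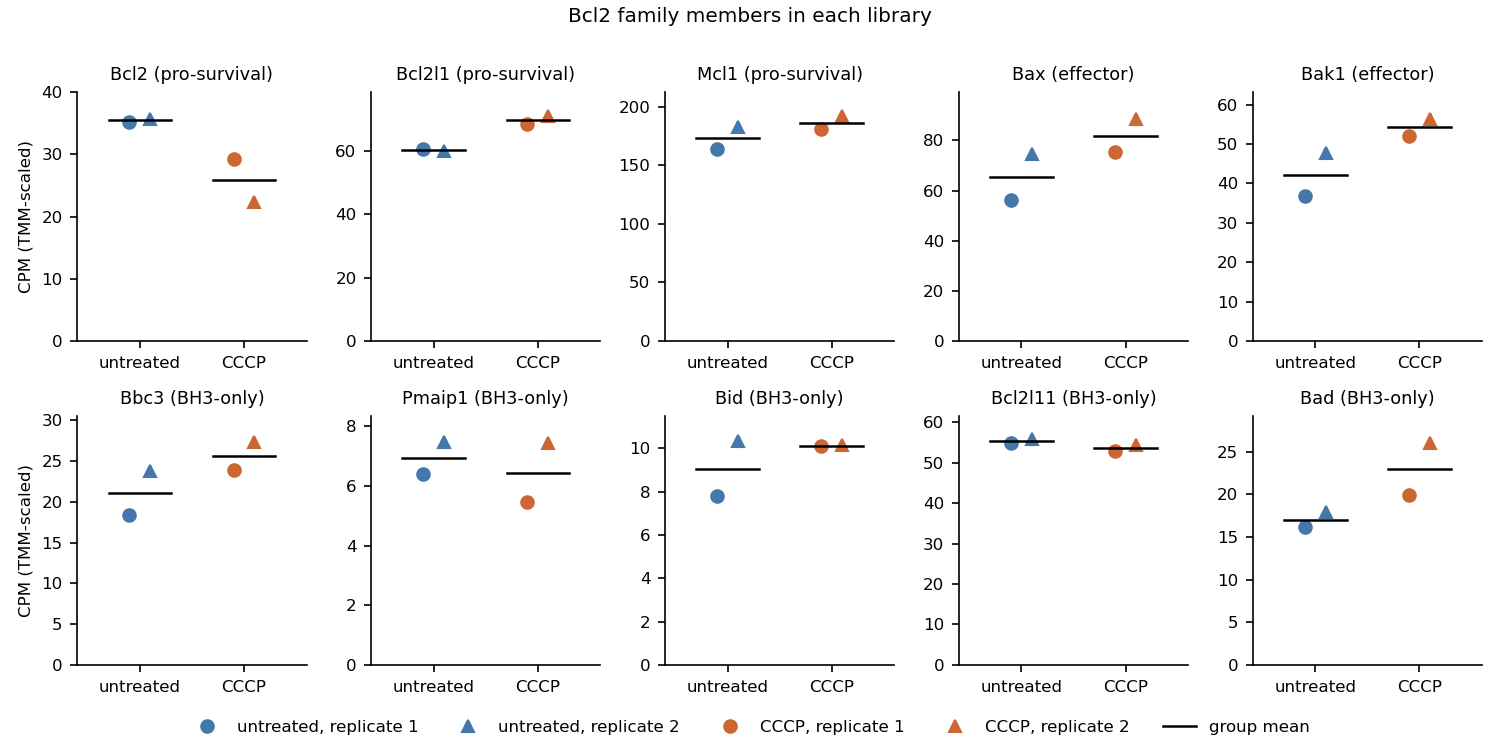
TMM-scaled CPM of the 10 members in each of the 4 libraries, on linear axes from 0; circles are replicate 1, triangles replicate 2, blue untreated, orange CCCP, and black lines the group means of 2 libraries. Bcl2 stands at 35.2 and 35.7 CPM in untreated and at 29.3 and 22.4 CPM in CCCP libraries, while Bax and Bak1 are higher in CCCP by about as much as the untreated libraries differ from each other.

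Among the pro-survival genes, Bcl2 was lower and Bcl2l1 higher in CCCP without overlap, and Mcl1 overlapped between groups. Bcl2 (chromosome 1, 106538176 to 106714290, mm10), the founding anti-apoptotic member, stood at 35.2 and 35.7 CPM without CCCP and at 29.3 and 22.4 CPM with it. The untreated libraries were nearly equal, and both CCCP libraries lay below them but apart from each other as well. Its mean was 35.5 ± 0.358 CPM untreated and 25.8 ± 4.85 CPM with CCCP (SD, n = 2 each), and the log2 fold change was -0.46 (SE 0.167, edgeR adjusted p 0.31). It was -0.27 without CCCP replicate 2 and -0.66 without CCCP replicate 1.

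Bcl2l1 (chromosome 2, 152758732 to 152833803), which encodes Bcl-xL, had 60.4 and 60.0 CPM untreated and 68.3 and 70.8 CPM with CCCP. The groups did not overlap, and the difference of the means was 3.75 times the larger gap between replicates, the highest such ratio among the members. That gap was 2.51 CPM, with a counting error of 1.83 CPM (SD), so it is no firm yardstick. The log2 fold change was 0.21 (SE 0.109, edgeR adjusted p 0.419), and it ran from 0.19 to 0.24 when 1 library at a time was left out, but it was 0.063 with the trend of all genes on GC content removed. Mcl1 (chromosome 3, 95656944 to 95663179), the short-lived pro-survival protein, had 163.9 and 182.4 CPM untreated and 180.7 and 191.8 CPM with CCCP. Here 1 untreated library lay above 1 CCCP library, and the log2 fold change was 0.10 (SE 0.120, edgeR adjusted p 0.70). Leaving out untreated replicate 1 gave 0.039, and leaving out untreated replicate 2 gave 0.22.

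Both effectors were higher in CCCP explants, by 1.25-fold and 1.29-fold, without passing the test. Bax (chromosome 7, 45461695 to 45466903) had 56.4 and 74.7 CPM untreated and 75.2 and 88.7 CPM with CCCP. The groups did not overlap, but untreated replicate 2 and CCCP replicate 1 differed by less than 1 CPM. The log2 fold change of Bax was 0.32 (SE 0.172, edgeR adjusted p 0.427). Bak1 (chromosome 17, 27019812 to 27028627), which sits constitutively in the outer mitochondrial membrane, had 36.7 and 47.6 CPM untreated and 51.9 and 56.5 CPM with CCCP. No value overlapped, and the log2 fold change was 0.36 (SE 0.158, edgeR adjusted p 0.36). The size of both depended on the untreated libraries: without untreated replicate 1 the log2 fold changes were 0.14 for Bax and 0.20 for Bak1, and without untreated replicate 2 they were 0.57 and 0.59.

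The BH3-only genes lay on both sides of a log2 fold change of 0, with 3 above and 2 below it and a median of 0.16. Leaving out untreated replicate 1 gave a median of -0.019, and leaving out untreated replicate 2 gave 0.41. Bad (chromosome 19, 6941861 to 6951905), whose protein is kept inactive by growth factor signalling, had 16.1 and 17.9 CPM untreated and 20.0 and 26.0 CPM with CCCP. Both CCCP values were above both untreated ones, and 0.43 (SE 0.189, edgeR adjusted p 0.36) was the highest log2 fold change among the members. It was 0.24 without CCCP replicate 2 and 0.62 without CCCP replicate 1. Bad shares 517 exon bases with Gpr137 on the other strand, and since strand was not used, reads there were left out as ambiguous.

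Bbc3 (chromosome 7, 16308398 to 16318334), which encodes Puma, a p53 target, had 18.4 and 23.7 CPM untreated and 23.9 and 27.3 CPM with CCCP. Untreated replicate 2 and CCCP replicate 1 nearly coincided, and the log2 fold change was 0.28 (SE 0.183, edgeR adjusted p 0.504). It was 0.12 without untreated replicate 1, 0.51 without untreated replicate 2 and 0.079 with the GC trend removed. Bcl2l11 (chromosome 2, 128126038 to 128162547), which encodes Bim, the main initiator of death on cytokine withdrawal in blood cells, had 54.83 and 55.78 CPM untreated and 52.97 and 54.22 CPM with CCCP. Both CCCP libraries were lower, with a difference of the means of 1.37 times the larger gap between replicates (1.25 CPM, within a counting error of 1.61 CPM), and the log2 fold change was -0.05 (SE 0.110, edgeR adjusted p 0.873). A stretch of 215 exon bases is shared with Acoxl on the same strand.

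Bid, whose protein links death receptors to mitochondria once caspase 8 cuts it, had 7.79 and 10.3 CPM untreated and 10.1 CPM in each CCCP library. The values overlapped between groups, at a log2 fold change of 0.16 (SE 0.223). Pmaip1, which encodes Noxa, an antagonist of Mcl1, had the lowest level, with 6.39 and 7.49 CPM untreated and 5.46 and 7.44 CPM with CCCP. Its groups overlapped too, at a log2 fold change of -0.11 (SE 0.258). Without untreated replicate 1 the log2 fold change of Bid was -0.019, and that of Pmaip1 was 0.04 without untreated replicate 2 and 0.11 without CCCP replicate 1, so neither kept its direction.

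**Figure D2:**
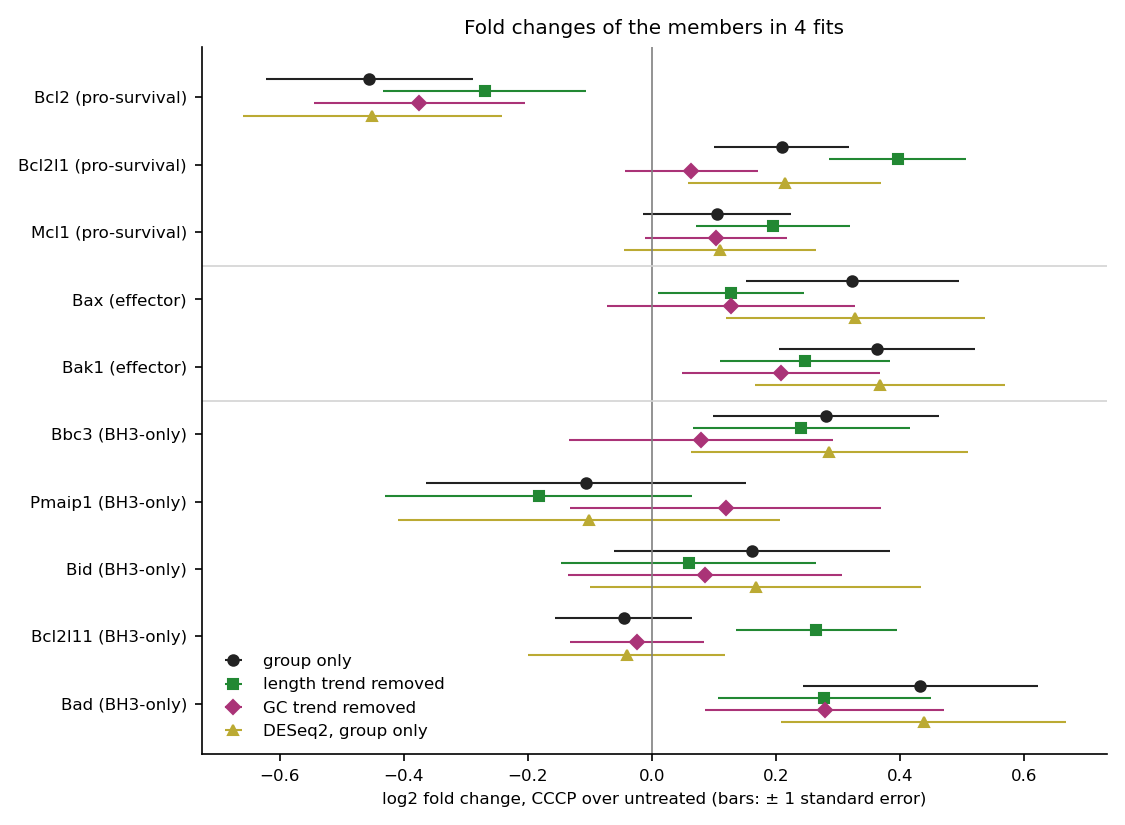
Log2 fold change of each member, CCCP over untreated, with bars of 1 standard error, in edgeR with the group as the sole term (black), in edgeR with the trend on exon length (green) or GC content (purple) removed, and in DESeq2 (yellow). In all 4 fits Bcl2 is below 0, and Bcl2l1, Mcl1, Bax, Bak1, Bbc3, Bid and Bad are above 0. Bcl2l11 moves from -0.05 to 0.27 once the length trend is removed, and Pmaip1 from -0.11 to 0.12 once the GC trend is removed.

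A ratio of pro-survival to pro-death transcripts within a library does not depend on library scaling. The summed counts per kilobase of the 3 pro-survival genes were 0.415 and 0.350 times those of the 7 pro-death genes in the untreated libraries, and 0.342 and 0.304 times with CCCP. Both CCCP libraries were lower, but CCCP replicate 1 and untreated replicate 2 nearly coincided. On the log2 scale the means were -1.39 ± 0.173 untreated and -1.63 ± 0.123 with CCCP (SD, n = 2 each), a difference of -0.24, about the size of the gap between the untreated libraries (0.244). The smallest two-sided p that an exact permutation test of 2 libraries against 2 allows is 0.333, so ratios are given without a test.

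Ratios that involve Bcl2 differed more, as follows from its log2 fold change, the lowest among the members. Ratios of single members restate their fold changes and are no further result. Bcl2 stood at 0.0784 and 0.0601 of the level of Bax in the untreated libraries, and at 0.0489 and 0.0317 of it with CCCP, a log2 difference of -0.80 against gaps of 0.385 and 0.623 between replicates. Bcl2 stood at 0.264 and 0.206 of Bak1 untreated and at 0.155 and 0.109 with CCCP, a log2 difference of -0.84. By contrast, Bcl2l1 stood at 0.135 and 0.101 of Bax untreated and at 0.114 and 0.1005 with CCCP, and the groups overlapped. Mcl1 stood at 0.510 and 0.428 of Bax untreated and at 0.421 and 0.379 with CCCP, a log2 difference of -0.23, with untreated replicate 2 next to CCCP replicate 1.

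Within the pro-survival pool, Bcl2 had less weight against Bcl2l1 and Mcl1 in both CCCP libraries, which again restates their fold changes. Bcl2l1 was 1.72 and 1.68 times Bcl2 in the untreated libraries, and 2.34 and 3.17 times with CCCP, a log2 difference of 0.68 against gaps of 0.0298 untreated and 0.437 with CCCP. Both CCCP libraries lay above both untreated ones. The untreated gaps of Bcl2 and Bcl2l1 in CPM were within their counting error, so the untreated gap of 0.0298 is no firm yardstick. Mcl1 was 6.498 and 7.126 times Bcl2 untreated and 8.61 and 11.9 times with CCCP, while Mcl1 over Bcl2l1 was 3.78 and 4.23 untreated and 3.68 and 3.77 with CCCP. The share of Bcl2 in the pool was 10.9% and 10.2% untreated and 8.37% and 6.21% with CCCP.

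**Figure D3:**
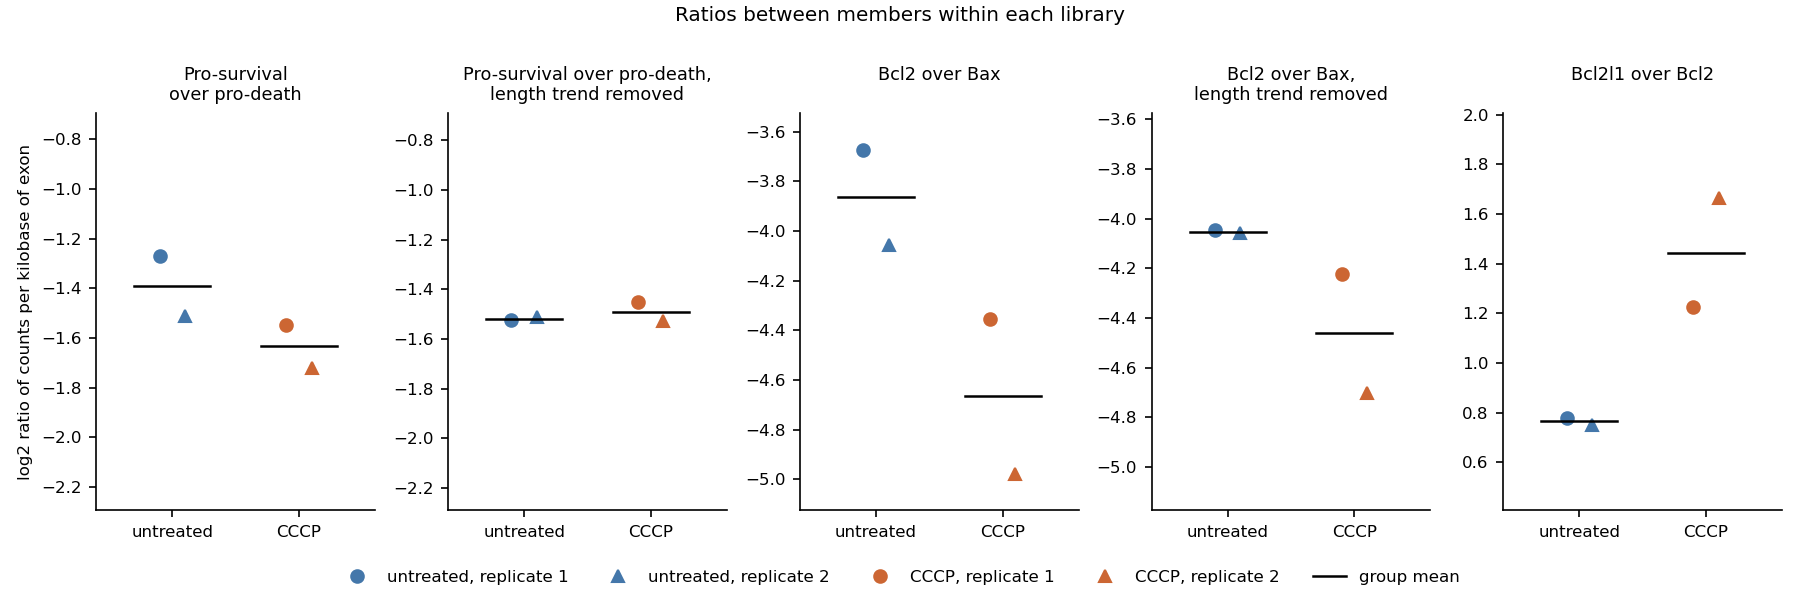
Log2 ratios of counts per kilobase of exon between members in each of the 4 libraries, with group means as black lines and all axes spanning the same range. The pro-survival over pro-death ratio differs by -0.24 between group means and by 0.028 once the length trend is removed, while Bcl2l1 over Bcl2 differs by 0.68. Ratios of single members restate their fold changes.

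The fold changes of all genes followed exon length and GC content. The pro-survival genes are longer than the effectors, while the BH3-only genes run from 1521 to 11212 bases of exon. Across the 19837 genes tested, Spearman's rho of the log2 fold change was -0.36 with exon length and 0.37 with the GC content of the transcript, given as a description across genes that share the same 4 libraries. With the genes split by length into 10 classes of equal number, the median log2 fold change was 0.22 in the shortest class and -0.36 in the longest. The pro-survival genes have 7349 (Bcl2), 7335 (Bcl2l1) and 5265 (Mcl1) bases of exon, and the effectors 923 (Bax) and 2023 (Bak1). In their length classes the medians of all genes were -0.20 for Bcl2 and Bcl2l1, -0.10 for Mcl1, 0.22 for Bax and 0.15 for Bak1. Bcl2l1 was thus 0.41 above the median of genes of its length and Bcl2 0.26 below it, while Bax was 0.10 above. Among the BH3-only genes, Bcl2l11 (11212 bases) was 0.32 above the median of its class, Bad (1521 bases) 0.24 and Bbc3 (3219 bases) 0.21 above, Bid 0.04 above and Pmaip1 (2654 bases) 0.22 below.

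When the length trend was removed from each library, the ratio of pro-survival to pro-death transcripts no longer differed by group: it was 0.348 and 0.350 untreated and 0.365 and 0.347 with CCCP, and the groups overlapped. The log2 fold changes were then -0.27 for Bcl2, 0.40 for Bcl2l1, 0.20 for Mcl1, 0.13 for Bax and 0.25 for Bak1, and Bcl2l11 turned to 0.27. With the GC trend removed they were -0.38 for Bcl2, 0.063 for Bcl2l1, 0.10 for Mcl1, 0.13 for Bax and 0.21 for Bak1. None of them passed in edgeR, where, with the length trend removed, the adjusted p-value of Bcl2l1 was 0.328 and that of Bcl2 0.538. Bcl2 and Bcl2l1 have almost the same exon length, so their ratio kept its difference of 0.68. Bcl2 over Bax kept a difference of -0.41, against gaps of 0.0138 untreated and 0.482 with CCCP. The untreated gap of Bcl2 in CPM was within its counting error, so the gap of 0.0138 is no firm yardstick. With the GC trend removed the Bcl2l1 to Bcl2 difference was 0.45 (GC contents of 55.9% and 46.3%), and that of Mcl1 to Bcl2, 48.7% and 46.3% GC, was 0.50 against 0.58 before. The groups of the pro-survival to pro-death ratio overlapped under the GC correction too, at a log2 difference of -0.10, as did those of Bcl2 over Bax, at -0.53.

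**Figure D4:**
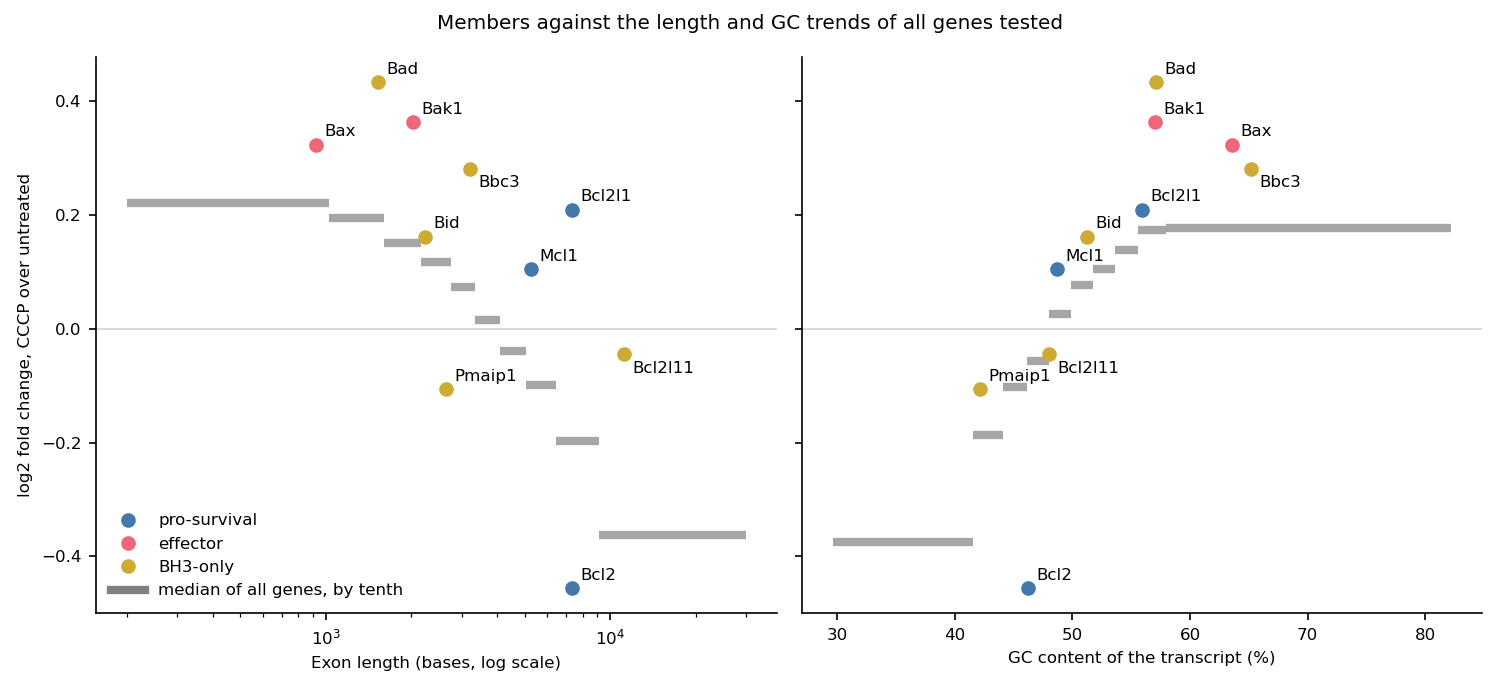
Log2 fold change of each member against its exon length (left, log scale) and transcript GC content (right), with grey bars for the median of all genes tested in each of 10 classes of length or GC; the outer length bars are drawn to 200 and 30000 bases. Bcl2l1 and Bcl2 share an exon length and lie 0.41 above and 0.26 below the bar of their class.

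Of 14 other Bcl2 family genes, 11 were tested and none passed in edgeR (adjusted p from 0.278 to 0.931). The groups did not overlap for 4 higher (36.4%) and 1 lower (9.09%), against 24.0% and 24.8% of all genes. The median log2 fold change was 0.22, and it was 0.084 with the length trend removed, 0.073 without untreated replicate 1, 0.078 without CCCP replicate 1 and 0.14 without CCCP replicate 2. Bnip3, an atypical member that also acts as a mitophagy receptor and is induced by low oxygen, had 96.9 and 136.3 CPM untreated and 82.6 and 77.1 CPM with CCCP, a log2 fold change of -0.55. It was -0.67 with the length trend and -0.29 with the GC trend removed. Bmf, a BH3-only gene, was higher at 116.1 and 98.7 against 139.5 and 125.1 CPM (log2 fold change 0.30). Bcl2l13, a further mitophagy receptor, had 0.22 and Bcl2l12 had 0.10. With the length trend removed Bmf and Bcl2l13 each had 0.39, and Bcl2l12 turned to -0.058. With the GC trend removed the values were 0.18 for Bmf, 0.20 for Bcl2l13 and -0.055 for Bcl2l12. Bcl2l10, Bcl2a1a and Bcl2a1d were too low to be tested, and reads of the Bcl2a1 copies can be lost to each other in the counting.

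Downstream of the family, most inhibitors of caspases were lower and several executors higher in CCCP. Among 20 genes of the apoptosome, the caspases and their inhibitors the groups did not overlap for 10 higher and 6 lower, against 24.0% and 24.8% of all genes, and none passed in edgeR (adjusted p from 0.222 to 0.99). Of the higher genes, Vdac3 and Vdac1, channels of the outer mitochondrial membrane, had log2 fold changes of 0.38 and 0.30, and Diablo, which encodes the antagonist of caspase inhibitors known as Smac, had 0.28. Diablo stood at 34.7 and 41.1 CPM untreated and 46.5 and 45.8 CPM with CCCP. Of the lower genes, the caspase inhibitor Xiap had 128.0 and 120.4 CPM untreated and 73.8 and 92.9 CPM with CCCP (log2 fold change -0.58). Birc6 and Birc2, of the same inhibitor family, had -0.57 and -0.29. The other lower genes, named after their values were seen, were Birc3, also an inhibitor (-0.34), Apaf1, the scaffold of the apoptosome (-0.09), and Dffb, a nuclease that cuts DNA (-0.20). Exon length goes with this pattern as well: Xiap has 22194 and Birc6 17014 bases, and with the length trend removed their log2 fold changes were -0.13 and -0.17, while that of Birc2 (4835 bases) was -0.22 and that of Diablo (1939 bases) 0.16. With the GC trend removed Xiap had -0.13, Birc6 -0.50, Birc2 -0.10, Diablo 0.19 and Vdac3 0.74.

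In the death receptor pathway 9 of 11 genes were tested and none passed in edgeR (adjusted p from 0.288 to 0.867), and both CCCP libraries were higher for 7 of the 9 and lower for 1, Casp8 (77.8% and 11.1%, against 24.0% and 24.8% of all genes). The median log2 fold change was 0.25, and 0.17 without CCCP replicate 2. The adaptors Tradd (4.31 and 4.63 against 7.03 and 7.19 CPM) and Fadd (11.2 and 14.1 against 17.2 and 17.5 CPM) had log2 fold changes of 0.67 and 0.46. The receptor Tnfrsf1a had 0.32, and Casp8, the initiator caspase that cuts Bid, had -0.19. With the length trend removed the 3 higher genes had 0.51, 0.39 and 0.21, and the median of the list was 0.21.

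The p53 genes, which include the regulators of Bbc3, Pmaip1 and Bax, were mixed: of 16 tested, 9 had a log2 fold change above 0 and 7 below, the groups did not overlap for 2 in each direction (12.5% each, against 24.0% and 24.8% of all genes), and none passed in edgeR (adjusted p from 0.228 to 0.956). Trp53 itself had 116.7 and 151.1 CPM untreated and 151.8 and 169.4 CPM with CCCP (log2 fold change 0.26). Mdm2, the ubiquitin ligase that p53 induces and that degrades p53, went the other way, at 86.8 and 92.5 against 68.9 and 63.2 CPM (log2 fold change -0.44). The targets Trp53inp1 and Perp had -0.45 and 0.51. With the length trend removed these values were 0.16 for Trp53, -0.25 for Mdm2, -0.34 for Trp53inp1 and 0.38 for Perp, and with the GC trend removed they were 0.15, -0.36, -0.081 and 0.53.

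Of 8 transcription factors and cofactors upstream of BH3-only genes, none passed in edgeR (adjusted p from 0.166 to 0.963), and the groups did not overlap for 4 higher (50.00%) and 1 lower (12.5%), against 24.0% and 24.8% of all genes. The stress factor Ddit3, known as Chop, which can lower Bcl2 transcription and raise that of Bcl2l11 and Bbc3 in other settings, had 36.7 and 37.5 CPM untreated and 56.9 and 54.6 CPM with CCCP, a log2 fold change of 0.59. Trib3, induced by Ddit3 and Atf4, had 38.3 and 56.5 against 72.0 and 82.2 CPM (0.70), and Atf4 had 0.31. Ddit3 and Trib3 were at 0.50 and 0.59 with the length trend removed, and at 0.69 and 0.54 with the GC trend removed. Atf4 was at 0.17 with the length trend removed and at 0.16 with the GC trend removed. Foxo1, whose motif is shown above for Bbc3 and Bcl2l11, had -0.07, with 41.3 and 41.7 against 39.1 and 40.1 CPM.

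Among 11 tested genes that act on the stability of Mcl1 or modify family members, 3 were higher and 3 lower without overlap (27.3% each, against 24.0% and 24.8% of all genes), and none passed in edgeR (adjusted p from 0.166 to 0.998). Usp9x, a deubiquitinase that stabilises Mcl1, had 319.1 and 259.1 CPM untreated and 154.3 and 178.5 CPM with CCCP, a log2 fold change of -0.80, and -0.43 with the length trend removed (13679 bases). Huwe1, a ligase that marks Mcl1 for degradation, had -0.37, and 0.03 with the length trend removed (16500 bases). With the GC trend removed Usp9x had -0.48 and Huwe1 -0.35. Gsk3b, a kinase that primes Mcl1 for degradation, had -0.34, and -0.10 with the length trend and -0.26 with the GC trend removed. Akt1, the kinase that inactivates Bad, had 0.33, with 255.3 and 281.4 against 335.9 and 338.3 CPM. The value of Akt1 was 0.28 with the length trend and 0.16 with the GC trend removed. Bag3 and Ywhaz, the latter a 14-3-3 protein that holds phosphorylated Bad, had 0.20 and 0.10.

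**Figure D5:**
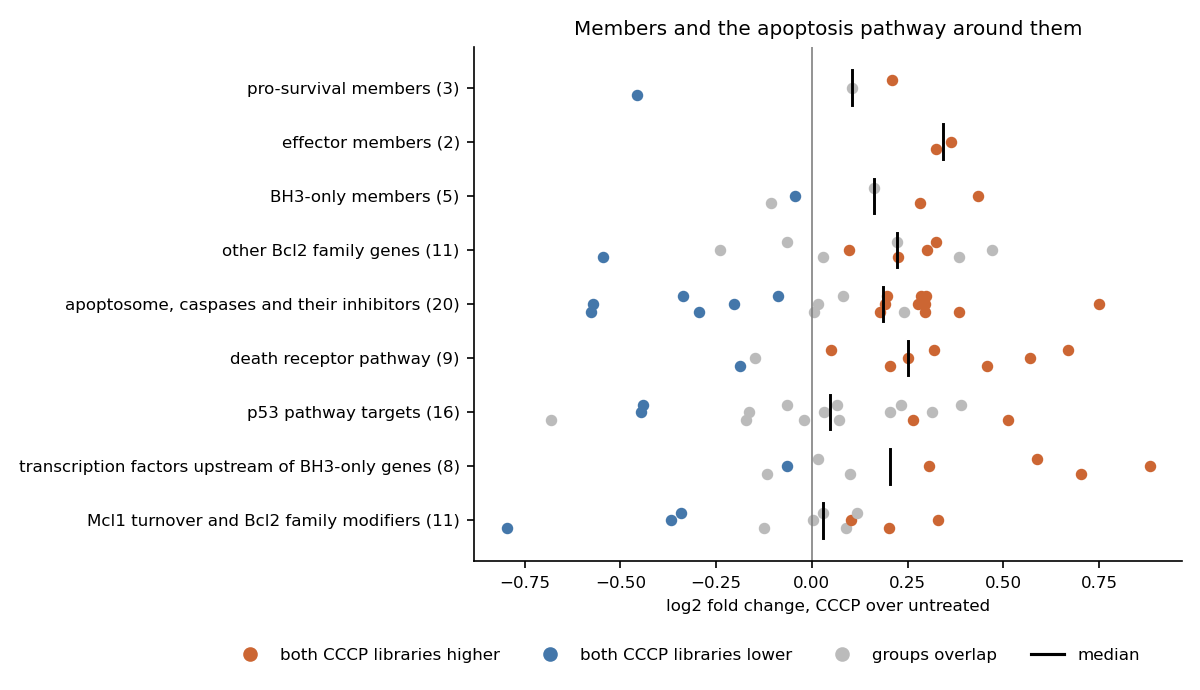
Log2 fold change of each tested gene, CCCP over untreated, for the 3 roles of the family and 6 lists of genes around it, with the number tested in brackets, black bars for medians, and colour for whether CCCP was higher (orange) or lower (blue) without overlap. In the death receptor list 7 of 9 genes are orange, and in the list of apoptosome genes, caspases and inhibitors 10 are orange and 6 blue.

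The pattern over the 4 libraries was compared with that of 10505 other genes of at least 10 CPM, by the distance between log2 CPM values centred on their mean. Closest to Bcl2 were Pfkfb3, a regulator of glycolysis, at a distance of 0.0692 (87.9 and 90.5 CPM untreated, 69.7 and 56.2 CPM with CCCP), Hmgn5 at 0.0720 and Cwf19l2 at 0.0910. Closest to Bak1 were Ndufb5, a subunit of respiratory complex I, at 0.0083 (45.9 and 59.5 CPM untreated, 65.3 and 71.0 CPM with CCCP), Hsd17b10, a mitochondrial dehydrogenase, at 0.01285, and H2aj at 0.0175. Closest to Bad were Mreg at 0.0106 (13.5 and 14.9 CPM untreated, 16.6 and 21.6 CPM with CCCP), Palm3 at 0.0224 and Tor2a at 0.0426. With 4 libraries many genes share a pattern, so these distances describe likeness and no more.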

How the data were processed

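Poly(A) RNA of 4 libraries, 2 untreated and 2 CCCP, was analysed, with groups from the sample titles. The deposited files hold raw read counts of genes, from featureCounts 2.0.3 on the mm10 RefSeq annotation per the file headers. Reads over exons were summed by gene with no strand option, while the labels' protocols name a directional kit, and without multi-mapping reads or reads touching more than 1 gene. HISAT2, SAMtools and FastQC appear in the submitters' processing notes. The count column of untreated replicate 1 is headed UM1 rather than UN1, so GEO's own file listing fixed its sample.

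Counts were fitted with edgeR 4.0.16 (glmQLFit, glmQLFTest) in R 4.3.3 with TMM scaling and no term but the group. The test was two-sided, with Benjamini-Hochberg adjustment over all 19837 genes tested and a threshold of 0.05. Genes were kept by filterByExpr, with at least 15 counts in total and about 10 counts, scaled to the median library size, in at least 2 libraries. All 10 members passed the filter. The standard error is the log2 fold change divided by the square root of F. DESeq2 1.42.0 was an alternative. Length and GC trends were removed by an offset per library, a lowess curve (span 0.3) of log2 CPM on exon length or on GC content of the longest GENCODE M21 transcript, known for 90.4% of genes. Simulated data were used to test edgeR with and without a term for the replicate number, DESeq2 and the removal of the length trend. The other fits were not simulated. The random spread between simulated replicates was set lower than in these data, so that test does not show how many changes would be found here. Levels per kilobase use the exon length on the primary chromosome.

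Named genes follow a rule: all 10 members, up to 3 genes per list and direction with the smallest p, no overlap and at least 5 CPM, and the 3 genes most like the member of smallest p in each role. The members and lists were chosen with earlier results of these data known.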

Additional observations from a re-analysis of the deposited data

How the results depend on the processing

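The number of genes past the threshold was 0 with group alone in edgeR, and stayed 0 with DESeq2 size factors, library totals, the length or GC trend removed, or mitochondrial and globin genes left out. It was 1107 (3.43%) without a filter on low counts, 594 (2.99%) in DESeq2, and 10 to 46 when 1 library at a time was left out, where the lone library is assumed to vary as the other group does. None of these fits called a member. No label says that a replicate number marks a shared litter or day, although same-numbered libraries deviated together (correlation 0.36 over genes). With the replicate block 2118 genes passed (10.7%), among them 1 member, Bcl2 (log2 fold change -0.47, edgeR adjusted p 0.0455, against 0.0455 to 0.909 over its 14 alternatives). Of the genes in the 6 lists around the family the block called 3 higher (Perp, Ddit3 and Trib3) and 6 lower (Bnip3, Xiap, Birc6, Mdm2, Trp53inp1 and Usp9x). With the length trend removed and the replicate block 1561 passed (7.87%), among them 1 member, Bcl2l1 (0.40, edgeR adjusted p 0.0221, against 0.0221 to 0.916). With the GC trend removed and the replicate block 662 passed (3.69%), with no member among them.

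Of 140 member values under alternatives, 131 kept their direction and their side of the threshold, 2 came to pass it (above) and 7 reversed. Pmaip1 turned to 0.12 with the GC trend removed, 0.11 with the replicate block added to that, 0.042 without untreated replicate 2 and 0.11 without CCCP replicate 1, within a range of -0.34 to 0.11 when 1 library was left out. Bid turned to -0.019 without untreated replicate 1, within a range of -0.019 to 0.41, and Bcl2l11 to 0.27 with the length trend removed, both without and with the replicate block. The pro-survival over pro-death difference of -0.24 ran from -0.36 to -0.12 when 1 library was left out. Among alternatives chosen after seeing the data, it was 0.028 with the length trend removed and -0.10 with the GC trend removed, and -0.28 and -0.21 within replicate numbers 1 and 2. The smallest count of a member was 265, and 8 of 20 gaps between replicates were under 2 SD of their counting error.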
